A study of Mus musculus with 12 samples.

Results

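The nuclear genes of oxidative phosphorylation were described in RNA-seq libraries of adult C57Bl6 mice. The tissue was the dorsal root ganglion, which lies along the spine and holds the cell bodies of neurons for touch, pain and body position. Members were the protein-coding genes whose symbols start with Ndufa, Ndufb, Ndufc, Ndufs, Ndufv, Sdh, Uqcr, Cox4, Cox5, Cox6, Cox7, Cox8 or Atp5 and that reached 1 CPM (counts scaled to the size of the library) in at least 6 of the 12 libraries. Of 55416 genes in the deposited tables, 111 had such a name, 98 of these were protein coding and 93 were members. They comprised 36 genes of complex I, 4 of complex II, 8 of complex III, 16 of complex IV, 17 of complex V and 12 assembly factors, so the name rule takes in 12 genes (Ndufaf1 to Ndufaf8 and Sdhaf1 to Sdhaf4) whose products help to build a complex without staying in it. Ndufa4 was placed in complex IV, where its protein is now assigned. Atp5s, which RefSeq names Dmac2l, was placed in complex V by its symbol alone. The members nearest the level threshold were Cox8b, at 1 CPM or more in 7 libraries, and Cox6a2 and Atp5g2, each in 8 libraries. Just below it lay Cox4i2 and Ndufa4l2, each in 1 library. The other 90 members passed in all 12 libraries.

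The study set 6 samples with an induced loss of Prdm12 (iKO), a PRDM-family zinc finger gene needed for pain-sensing neurons to form, against 6 controls. All 6 iKO samples carried Rosa26Cre ERT2, a tamoxifen-activated Cre recombinase driven from a locus active in most cell types, with 2 floxed alleles (Fl/Fl), and were taken 1 month after tamoxifen. Controls 1 to 4 also received tamoxifen: control 1 was Rosa26Cre ERT2; Fl/+, controls 2 and 3 were +/+; Fl/+, and control 4 was Rosa26Cre ERT2; +/+. Controls 5 and 6 had the iKO genotype and received corn oil. Females gave 5 libraries (controls 1 and 2, iKO 1 to 3) and males 7. Whether ganglia were pooled over animals is not given in the labels. The p-values thus refer to the variation among these samples, some of which may be technical.

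Prdm12 ranged from 64.5 to 147 CPM over the controls, with control 6 the lowest, and from 18.6 to 25.3 CPM over the iKO libraries, so the groups did not overlap. Which part of the gene the floxed alleles remove is not given in the sources used here. Markers of sensory neurons summed to between 13450 and 20950 CPM in every library, which fits the labelled tissue. Total counts were 13943784 to 20377766 per library. Library iKO 1 stood apart: it had the lowest summed level of the 14 sensory neuron markers, 13450 CPM against 17970 to 20040 CPM in iKO 2 to 6. It also had the highest summed levels of the 10 macrophage markers (404 against 140.0 to 165 CPM) and of the 8 fibroblast markers (3915 against 1391 to 1619 CPM). The comparison of the groups is therefore given for the complexes and the members described with and without iKO 1.

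Oxidative phosphorylation takes place in the inner mitochondrial membrane. Complexes I and II pass electrons from NADH and succinate to ubiquinone, complex III hands them to cytochrome c, complex IV reduces oxygen, and complex V (ATP synthase) uses the resulting proton gradient to make ATP. Most subunits are encoded in the nucleus and are built together with a small set encoded in mitochondrial DNA, and the long axons of sensory neurons have a high demand for ATP. Many promoters of the nuclear subunit genes are known to hold sites for the factors NRF1, GABP (an ETS-family factor) and YY1.

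The 4 stretches below are shown because they show the range from several NRF1 matches to none: 3 come from broadly expressed subunit genes and 1 from a muscle form. Each is the last 120 bases before the start site, on the gene's own strand and 5′ to 3′, from RefSeq on GRCm38.p6. Capitals mark matches, on either strand, to the NRF1 motif (GCGCA, any base, then GCGC) or to CCGGAAG (ETS). Sdha lies at chr13:74350241-74350360, Cox6a1 at chr5:115348959-115349078, Atp5k at chr5:108434400-108434519 and Cox8b at chr7:140900447-140900566, all on the minus strand.
Sdha: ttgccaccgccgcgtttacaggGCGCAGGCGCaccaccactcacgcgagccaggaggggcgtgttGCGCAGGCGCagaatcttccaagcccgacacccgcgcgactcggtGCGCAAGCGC
Cox6a1: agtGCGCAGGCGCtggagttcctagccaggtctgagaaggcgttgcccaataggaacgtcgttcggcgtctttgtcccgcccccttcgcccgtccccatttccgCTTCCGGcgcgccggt
Atp5k: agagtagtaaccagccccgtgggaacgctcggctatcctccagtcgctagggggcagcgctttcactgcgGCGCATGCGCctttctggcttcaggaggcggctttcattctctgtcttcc
Cox8b: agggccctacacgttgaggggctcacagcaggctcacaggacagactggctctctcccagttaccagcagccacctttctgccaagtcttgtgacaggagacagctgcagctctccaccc

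The stretch of Sdha, the flavoprotein subunit of complex II, held 3 NRF1 matches, the last of which ends at the base before the start site. That of Cox6a1, the broadly expressed form of a complex IV subunit, held an NRF1 match and an ETS match, which end 107 and 9 bases before the start. The stretch of Atp5k, which encodes the e subunit of ATP synthase, held a single NRF1 match, 40 bases before the start. None of the motifs searched was found in the stretch of Cox8b, the muscle form of Cox8a.

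RefSeq promoter windows of 300 bases (250 before and 50 after the start) were matched for 79 of the 93 members, in 84 windows. The NRF1 motif was found on either strand in 22 member windows (26.2%), against 4.59% of all 32817 windows and 6.36% of those of protein-coding genes. CCGGAAG was found in 21 member windows (25%), against 8.86% of all windows and 11.6% of protein-coding ones. The YY1 motif AAGATGGCG was found in 8 (9.52%), against 1.4% and 1.83%, and it overlapped no ETS match in a member window. TATAAA was found in 8 (9.52%), against 13.6% and 12.6%, and the difference was not tested. By complex, NRF1 matches were found in 8 of 34 windows of complex I and 6 of 18 of complex V. They were found in 4 of 11 windows of the assembly factors and 1 of 13 of complex IV, that of Cox6a1. Windows of the broadly expressed Cox8a, Cox5a and Cox7a2 held none, so the lack of a match was not particular to the muscle form Cox8b. The Cox8b window held a TATAAA match outside the stretch shown. Outside their stretches, the Cox6a1 window held at least 1 further NRF1 match and the Atp5k window an ETS match. At least 1 of the NRF1, ETS and YY1 motifs was found in 43 member windows (51.2%), against 17.9% of protein-coding windows. The shares are descriptions of letters in these windows, and member windows were somewhat richer in G and C, with a median of 58.7% against 56.3% in protein-coding windows. Members with no matched window included Atp5a1, Atp5mpl, Cox4i1, Cox6a2, Cox6c, Ndufa2, Ndufaf6, Ndufb9, Ndufs1, Sdhc, Uqcrb, Uqcrc2 and Uqcrq.

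Levels of different genes were compared as CPM per kb of the principal transcript, with control means ± SD over 6 libraries. These levels depend on the transcript taken as principal, and which transcripts are used in these ganglia was not measured. The median length was 861 bases. The median member stood at 91.7 CPM per kb. Complexes IV and V had the highest medians, 150 and 151 CPM per kb, complex II had 111, complex III 105 and complex I 91.5, and the assembly factors were the lowest at 18.1. The highest member was Ndufa4 at 785 ± 75.6 CPM per kb. Atp5b, the catalytic beta subunit of ATP synthase, followed at 635 ± 29.96.

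**Figure D1:**
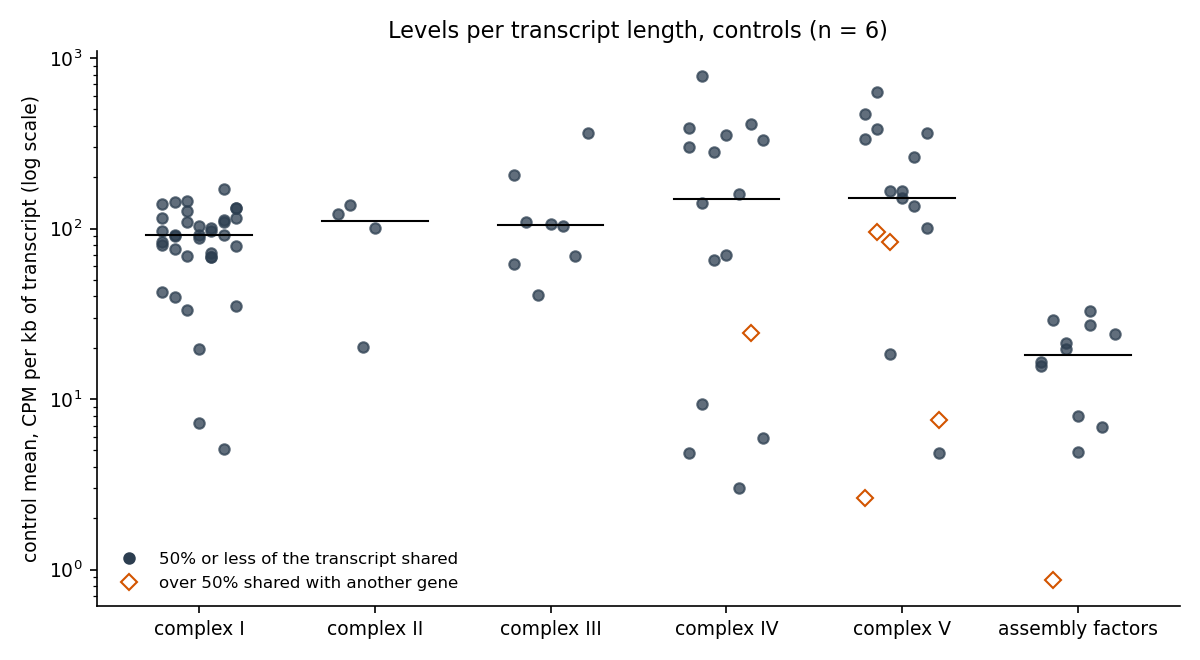
Control mean (n = 6) of each of the 93 members in CPM per kb of transcript, on a log scale, by complex. Lines are medians and open diamonds mark the 6 members whose principal transcript shares over 50% of its 50-base stretches with another gene; 3 of these 6 lie below 10 CPM per kb.

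In complex I, the largest set, Ndufa2 was the highest member and reached 170 ± 9.12 CPM per kb, 1.86 times the median of the complex. Of its core subunits, the flavin-binding Ndufv1 stood at 110 ± 14.2 CPM per kb and Ndufs3 at 34.9 ± 2.67. Its lowest members were Ndufb4 at 7.21 ± 1.18 and Ndufab1, the mitochondrial acyl carrier protein, at 5.10 ± 0.306. The Ndufab1 value is per kb of a transcript of 3479 bases. In complex II the iron-sulfur subunit Sdhb (137 ± 3.21), the flavoprotein Sdha (121 ± 3.75) and the membrane anchor Sdhd (101 ± 5.04) lay close together. The other anchor, Sdhc, stood at 20.2 ± 1.29 CPM per kb of a transcript of 3171 bases. Before division by length, Sdhc had 64.0 ± 4.08 CPM and Sdhd 124 ± 6.21 CPM in controls. In complex III, Uqcrh, the hinge protein, was the highest (362 ± 27.3). The core proteins Uqcrc1 (107 ± 5.99) and Uqcrc2 (103 ± 3.11) did not differ beyond their spread, and Uqcrb was the lowest (40.7 ± 5.74). Sdhaf4 led the assembly factors at 32.7 ± 3.81 CPM per kb, and Sdhaf1 had the lowest level per length of all members, 0.864 ± 0.106.

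In complex V, Atp5b was followed by Atp5mpl (467 ± 56.9), Atp5g3 (385 ± 16.8), Atp5k (364 ± 72.2) and the catalytic alpha subunit Atp5a1 (337 ± 14.5), of which Atp5k lay within its spread of both neighbours. The 3 genes that encode the same mature c subunit of the membrane rotor differed widely: Atp5g3 stood at 385 ± 16.8 CPM per kb, Atp5g1, whose transcript is 4715 bases long, at 4.86 CPM per kb and Atp5g2 at 2.61 ± 0.664. Before division by length, their control means were 275, 22.9 and 1.15 CPM. Shared sequence bears on the last 2 of these genes. For Atp5g1, 11.6% of the 50-base stretches of its transcript also occur in transcripts of other genes. Of the 50-base stretches of the Atp5g2 transcript, 100% also occur in transcripts of other genes, and how the counting treated reads that fit several genes is not given in the sources used here. Shared shares were 84.8% for Atp5l (the g subunit), 69.0% for Sdhaf1, 53.0% for Cox7c, 50.5% for Atp5h and 50.3% for Atp5o, while 43 members shared none. The 6 members that shared over 50% had a median of 15.98 CPM per kb, against 97.05 for the 43 without shared stretches. Levels of these 6 are uncertain, and that of Atp5g1 may be too. The same may hold for other members that share up to 50%. Among those low in their complex above, Uqcrb shared 43.4%, Ndufs3 39.7% and Ndufb4 37.0%. Atp5f1, which shared 38.7%, stood at 101 ± 5.22 CPM per kb in controls. Overlap on the chromosome adds to this for unstranded libraries, since at least 10% of the exonic bases of 14 members lie within another gene's exons, among them Sdhaf1 (69.6%), Ndufaf2 (65.7%) and Atp5o (47.9%). For Uqcrc2 and Cox5a, both described below, the overlaps were 19.8% and 12.8%.

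No member passed the test between iKO and control libraries. With edgeR's quasi-likelihood test and Benjamini-Hochberg adjustment over 16384 genes, 0 of 93 members had an adjusted p under 0.05, where 0.946% of all genes did. At an unadjusted p under 0.05 there were 9 members, 8 higher and 1 lower, a share of 9.68% against 9.52% of all genes. DESeq2 and limma-voom also called 0 members. The median log2 fold change over the 93 was 0.03, beside 0.00 for all genes, with 63 positive and 30 negative values, and the median size without regard to sign was 0.07. The log2 fold change plus and minus 2 standard errors lay within a 1.5-fold change in either direction for 89 members. The other 4 were Atp5g2, Cox6a2, Cox8b and Sdhaf1, all with control means near or below 2 CPM, whose intervals reach past a 1.5-fold change.

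**Figure D2:**
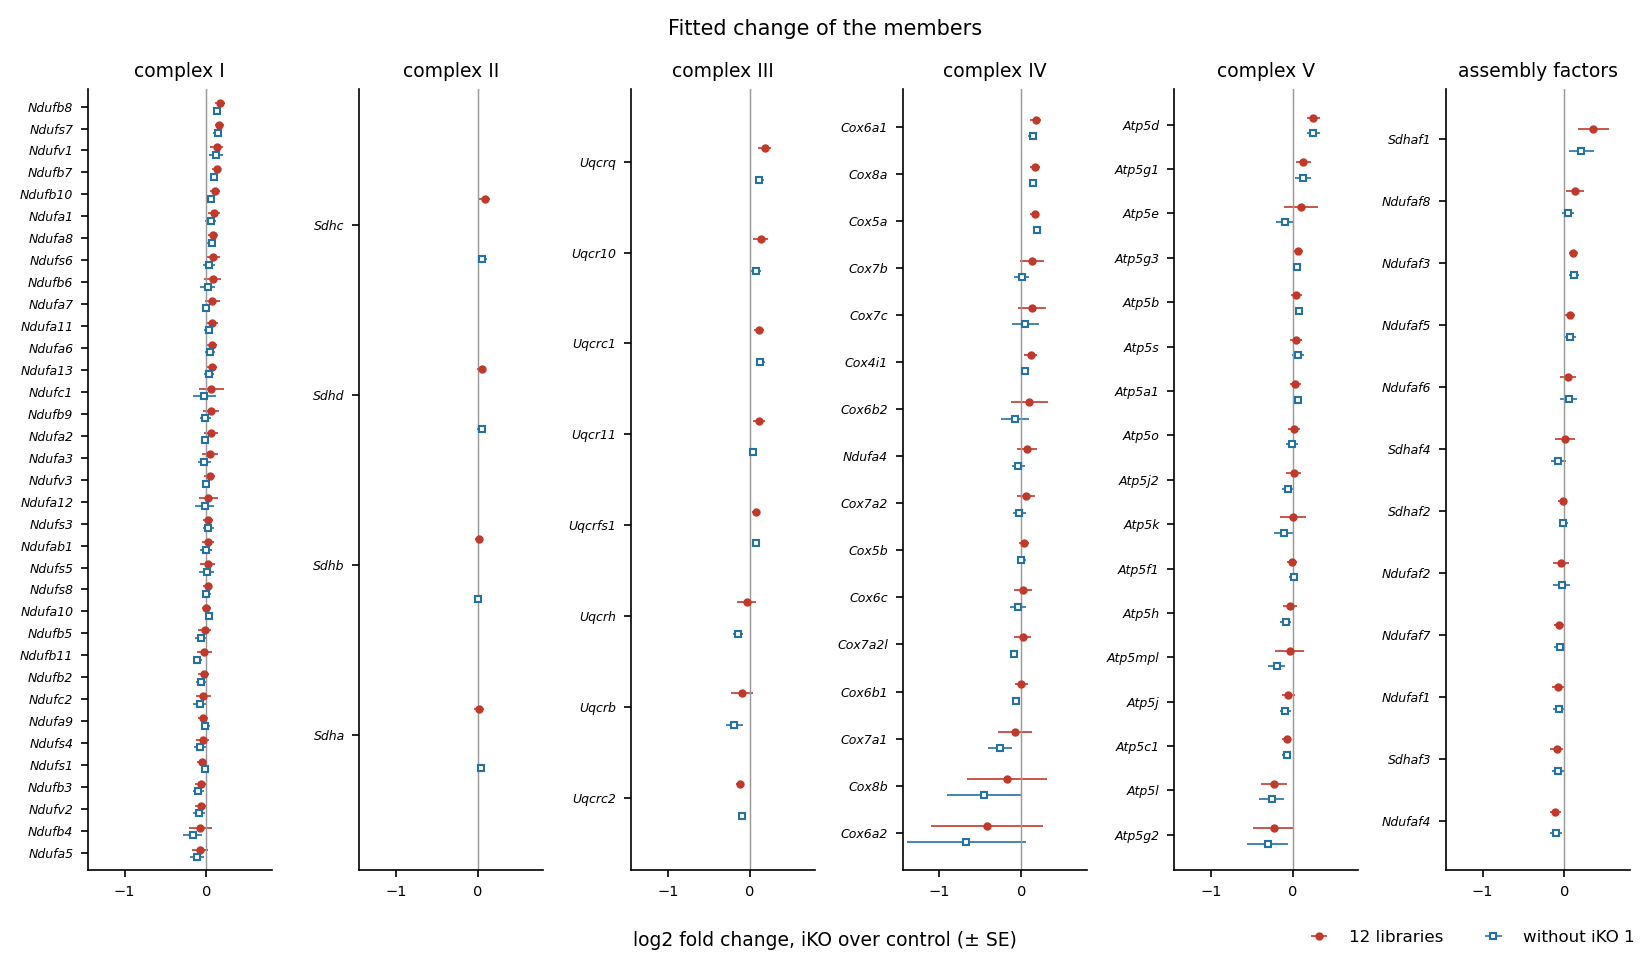
Log2 fold change of iKO over control (± SE) for members by complex, with all 12 libraries (filled circles) and without iKO 1 (open squares). Cox6a2 and Cox8b have the widest error bars (SE 0.68 and 0.49), and 0 members pass the adjusted threshold in either set.

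Without iKO 1, again 0 of 93 members passed, where 2.21% of 16454 genes did, and 9 had an unadjusted p under 0.05, 8 higher and 1 lower, against 16.2% of all genes. The median over members was -0.01, with 43 positive and 50 negative values. By complex, the medians with and without iKO 1 were 0.04 and -0.01 in complex I, 0.03 and 0.04 in complex II, and 0.10 and 0.06 in complex III. They were 0.06 and -0.03 in complex IV, 0.01 and -0.06 in complex V, and -0.01 and -0.02 among the assembly factors. The sign of the median thus turned in complexes I, IV and V and not in the other sets. All 4 members of complex II had positive values with all libraries and 3 of 4 without iKO 1, none of them called. Without iKO 1, the intervals of 90 members lay within a 1.5-fold change.

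**Figure D3:**
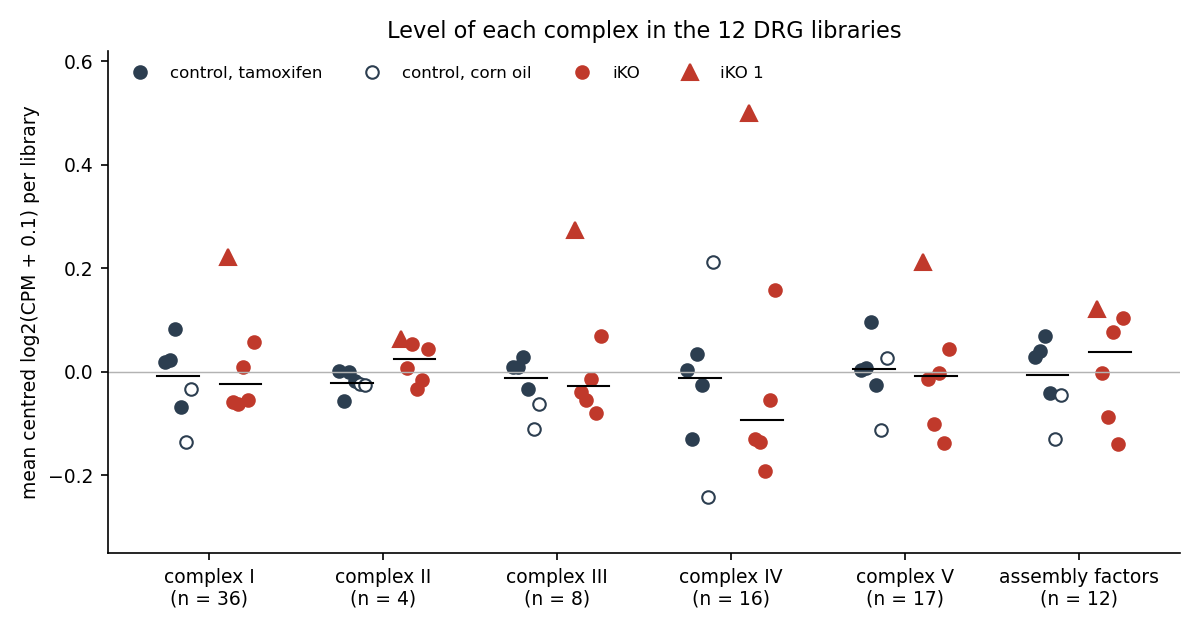
Each point is 1 library: its log2(CPM + 0.1), minus the 12-library mean of the gene, averaged over the members of a complex, and lines at group medians. The control and iKO libraries overlap in each complex, iKO 1 (triangle) is the highest library in each, and in complex IV it stands at 0.50 against -0.19 to 0.16 in iKO 2 to 6.

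The same means per library show how the samples were ordered. Over all 93 members the controls ran from -0.14 in control 5 to 0.07 in control 3, and iKO 2 to 6 ran from -0.08 in iKO 5 to 0.08 in iKO 6, inside or just beyond the span of the controls. Library iKO 1 stood at 0.25. Control 5 had the lowest CPM of all 12 libraries in 30 members and the highest in 0, and iKO 3 the lowest in 16. Summed over members, 1.01% to 1.13% of a library's counts fell on these genes in 11 libraries and 1.30% in iKO 1.

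The 2 corn-oil controls and iKO 5 and 6 carry sample numbers 14 to 17 in the submitters' sample names, and the other 8 libraries numbers 1 to 8. Within numbers 14 to 17, where all 4 libraries share genotype and sex and differ in the agent, the median over members was 0.07, with 74 positive values. Within numbers 1 to 8 it was 0.02, with 58 positive values. In neither was a member called, where 0.497% of all genes were called within numbers 14 to 17 and 0.211% within numbers 1 to 8. What these numbers stand for is not given in the sources used here.

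Cox5a, a nuclear subunit of complex IV that contacts its catalytic core, came closest to a call in several settings. Its level was 85.2, 91.0 and 96.8 CPM (lowest, median, highest) in the controls and 92.1, 102 and 109 CPM in the iKO libraries. The lowest iKO value was that of iKO 1, and the other 5 iKO libraries, at 98.2 CPM or more, lay above every control. With all libraries edgeR gave a log2 fold change of 0.17 ± 0.05 (SE), with an adjusted p = 0.256, and 0.19 ± 0.05 (adjusted p = 0.0511) without iKO 1, so it did not pass in either. Over the alternatives without iKO 1, its adjusted p fell under 0.05 in 9, among them DESeq2 (adjusted p = 0.00815) and the test without a sex term (adjusted p = 0.033). With iKO 1 kept, it passed in none.

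Atp5d, the delta subunit of the ATP synthase central stalk, had the largest positive value in complex V and the smallest p of all members. The controls had 133, 155 and 179 CPM and the iKO libraries 156, 186 and 219 CPM, which overlap. The log2 fold change was 0.25 ± 0.08 (adjusted p = 0.251), and 0.25 ± 0.08 (adjusted p = 0.132) without iKO 1. Control 5, treated with corn oil, held the highest control value. In the alternatives without iKO 1, Atp5d passed with no filter on low counts (adjusted p = 0.000716), without control 5 (0.0201) and without iKO 4 (0.0458). Without the 2 corn-oil controls the value was 0.35 ± 0.07 (adjusted p = 0.0399), the 1 member called there, where 1.41% of all genes were. Without those controls and iKO 1, 5 members were called, Atp5d, Cox5a, Cox6a1 and Uqcrc1 higher and Uqcrh lower, but 9.62% of all genes passed in that comparison of 5 against 4 libraries, a larger share than the 5.38% of members.

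In complex I, Ndufb8, an accessory subunit of the membrane arm, had the smallest p. Its controls had 75.1, 78.6 and 81.8 CPM and the iKO libraries 80.6, 85.3 and 105 CPM, with only iKO 5 inside the range of the controls. The log2 fold change of 0.16 ± 0.06 did not pass (adjusted p = 0.363), nor did that of 0.13 ± 0.05 without iKO 1 (adjusted p = 0.185). Ndufb7, another accessory subunit, had 69.6, 72.8 and 74.0 CPM in the controls and 74.7, 76.2 and 92.5 CPM in the iKO libraries. Its groups did not overlap, although the gap between the nearest libraries was under 1 CPM, and the log2 fold change of 0.12 ± 0.06 did not pass (adjusted p = 0.519; 0.09 ± 0.04 without iKO 1). Ndufa2, the highest per length in its complex, averaged 97.4 ± 5.22 CPM over controls and 103 ± 17.4 CPM over iKO libraries (adjusted p = 0.875), with log2 fold changes of 0.05 with and -0.02 without iKO 1.

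Uqcrc2, a core protein of complex III, was the other member whose groups did not overlap. The controls had 189, 196 and 202 CPM and the iKO libraries 161, 183 and 188 CPM, with iKO 1 the lowest. The log2 fold change was -0.11 ± 0.05 (adjusted p = 0.507), and -0.09 ± 0.04 (adjusted p = 0.311) without iKO 1. Thus 2 of 93 members (2.15%) separated the groups, against 1.54% of all genes, and without iKO 1 Cox5a joined them, 3 members against 2.92% of all genes. Uqcrq, a small subunit of the same complex, had 85.3, 93.5 and 105 CPM in controls, against 97.4, 104 and 139 CPM in iKO libraries (log2 fold change 0.19 ± 0.08, adjusted p = 0.501; 0.12 ± 0.06 without iKO 1). Uqcrh had overlapping groups, 198 ± 14.9 CPM in controls, against 197 ± 44.9 CPM in iKO libraries, of which iKO 1 held 285 CPM and the other 5 at most 195. Its log2 fold change was -0.04 ± 0.12, and -0.14 ± 0.06 (adjusted p = 0.294) without iKO 1.

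The remaining named members of complexes II and V and the assembly factors gave values near 0. Sdhc had 64.0 ± 4.08 CPM in controls, against 68.4 ± 6.16 CPM in iKO libraries (log2 fold change 0.08 ± 0.07), and Sdhb 157 ± 3.66 and 159 ± 7.96 CPM (0.02 ± 0.05). Without iKO 1 these were 0.05 and -0.0020. Atp5b had 1216 ± 57.4 and 1243 ± 83.5 CPM, a log2 fold change of 0.04 ± 0.06, and 0.07 ± 0.05 without iKO 1. Among the assembly factors the smallest p was that of Ndufaf3, which acts early in complex I assembly, at 29.2 ± 1.26 and 31.6 ± 1.93 CPM (0.11 ± 0.06, adjusted p = 0.57; 0.12 ± 0.06 without iKO 1). Sdhaf4, needed to mature the flavoprotein of complex II, had 22.4 ± 2.60 and 22.9 ± 4.70 CPM, with log2 fold changes of 0.01 with and -0.07 without iKO 1.

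The largest departure within the members was not between the groups but in iKO 1, and it varied with transcript length. Library iKO 1 had the highest CPM of all 12 libraries in 51 members (54.8%), against 24.6% of all genes tested, and the lowest in 9. In log2(CPM + 0.1), it exceeded the mean of iKO 2 to 6 in all 26 members with a transcript of up to 600 bases, by a median of 0.46. The median was 0.30 for the 28 members of over 600 to 1000 bases, 0.01 for the 17 of over 1000 to 1500 bases and -0.06 for the 22 longer ones. The largest excesses were those of Cox6b2 (1.15, 553 bases), Atp5e, the epsilon subunit of ATP synthase (1.15, 421 bases) and Cox6a2 (1.06, 680 bases). Cox6a2 was near the level threshold, with 2.29 CPM in iKO 1, 2.21 CPM in iKO 6 and 0.357 CPM in iKO 4. Atp5mpl, at 283 CPM in iKO 1, had an excess of 0.94 (366 bases). The lowest differences were those of Ndufs1 (-0.30, 2661 bases) and Ndufa10 (-0.27, 2020 bases). Sdhaf1 departed from this order, with 0.89 at 2490 bases, and Cox5a, with -0.17 at 645 bases. For Sdhaf1, 69.0% of the stretches are shared and the highest level was 4.64 CPM, so its place is uncertain. Spearman's rho between length and difference was -0.629 across the 93 members, which share the same libraries and are not independent replicates.

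**Figure D4:**
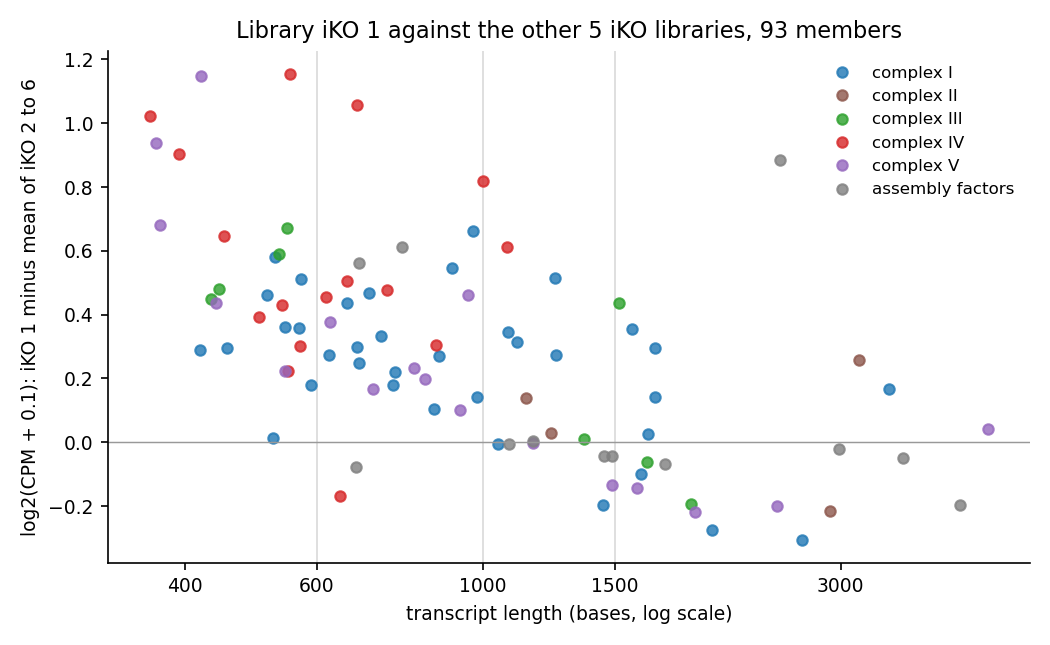
Difference in log2(CPM + 0.1) between iKO 1 and the mean of iKO 2 to 6 for each member, against the length of its principal transcript on a log scale. Vertical lines mark the bounds of 600, 1000 and 1500 bases; all 26 members of up to 600 bases lie above 0, and 9 of the 22 over 1500 bases do.

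The same order appeared over all protein-coding genes tested. By total exon length, iKO 1 differed from iKO 2 to 6 by a median of 0.49 for 255 genes of up to 1000 bases, 0.23 for 1497 genes to 2000 bases, 0.06 for 4387 genes to 4000 bases, -0.05 for 5695 genes to 8000 bases and -0.18 for 2651 longer genes. Members in the first 3 of these classes differed by medians of 0.47 (22 members), 0.36 (35 members) and 0.03 (23 members). The 77 cytosolic ribosomal protein genes, most of which are short, averaged 0.58 above their own mean over the libraries in iKO 1, and the 77 mitochondrial ribosomal protein genes 0.14. Between the groups 0 of either list were called, with 33 and 47 of 77 positive values. Without iKO 1 the cytosolic list had 11 positive and 66 negative values (median -0.12, against -0.02 with it), 1 of them called lower, and the mitochondrial list 42 positive ones. Beside the macrophage and fibroblast markers given above, the 12 of endothelium and mural cells were also highest in iKO 1, summing to 634 CPM against 420 to 439 CPM in iKO 2 to 6. The sums for myelinating Schwann cells (6820 CPM, at most 5917 elsewhere), satellite glia (4342, at most 3729), adipocytes (63.0, at most 49.6) and erythroid cells (338, at most 327) were highest there as well. The part of transcript length, of these cell types or of RNA quality in the level of the members was not tested. In bulk tissue, more cells of a type and more RNA per cell cannot be told apart.

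Complex IV carries most of the tissue-restricted forms, which replace a broadly expressed partner in heart and skeletal muscle (Cox6a2, Cox7a1, Cox8b) or are known mainly from testis (Cox6b2). In these ganglia the broad forms were far more abundant per length: Cox6a1 stood at 355 ± 20.6 and Cox6a2 at 3.01 ± 3.56 CPM per kb in controls. Cox8a stood at 331 ± 18.8 and Cox8b at 4.82 ± 3.79. Cox7a2 stood at 280 ± 31.3, Cox7a2l, which is known from supercomplex assembly, at 70.0 ± 2.41 and Cox7a1 at 9.38 ± 1.87. Cox6b1 stood at 411 ± 20.3 and Cox6b2 at 5.89 ± 1.14.

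The tissue-restricted forms Cox6a2, Cox8b and Cox6b2 had the widest ranges of all members over the 12 libraries, 3.92, 2.94 and 1.52 in log2(CPM + 0.1), against a median range of 0.51, and Cox7a1 had 1.13, below several members of other complexes. Cox6a2 had 0.435, 1.35 and 6.84 CPM in the controls and 0.357, 1.28 and 2.29 CPM in the iKO libraries. Cox8b had 0.526, 1.249 and 4.31 CPM in the controls and 0.476, 1.39 and 2.19 CPM in the iKO libraries. Both were highest in control 6, and both groups overlapped. The log2 fold changes were -0.42 ± 0.68 for Cox6a2 and -0.17 ± 0.49 for Cox8b, neither called (adjusted p = 0.879 and 0.94), and -0.67 ± 0.73 and -0.45 ± 0.45 without iKO 1. Without control 6 they were 0.35 and 0.22, so that both signs turned, and without iKO 4 that of Cox8b turned too (0.14). Without the 2 corn-oil controls they were 0.17 and 0.21. For Cox7a1, with 3.69 ± 0.735 CPM in controls, against 3.50 ± 1.16 CPM in iKO libraries, the value turned from -0.08 to 0.03 without control 6, and was -0.26 ± 0.14 without iKO 1.

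Skeletal muscle markers were highest in the same library. The 12 markers, among them an actin, myosins and troponins, summed to 560 CPM in control 6, 115 CPM in control 4, 78.1 CPM in control 1, 75.6 CPM in control 3, 64.0 CPM in control 5 and 25.1 CPM in control 2. In the iKO libraries the sums were 95.3, 51.0, 48.0, 23.3, 123 and 125 CPM for iKO 1 to 6. No marker was at 0 in all libraries, and Acta1, skeletal muscle actin, held 172 CPM in control 6. Control 2 and iKO 4, with the lowest sums, had 0.460 and 0.357 CPM of Cox6a2 and 0.526 and 0.476 CPM of Cox8b. Control 5 held 0.435 CPM of Cox6a2 at a middling sum of markers. The part of muscle in these values was not tested. Cox6b2 did not follow the same order, with its highest level, 6.88 CPM, in iKO 1 and 3.63 CPM in control 6. Its log2 fold change was 0.10 ± 0.23, and -0.08 ± 0.17 without iKO 1.

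**Figure D5:**
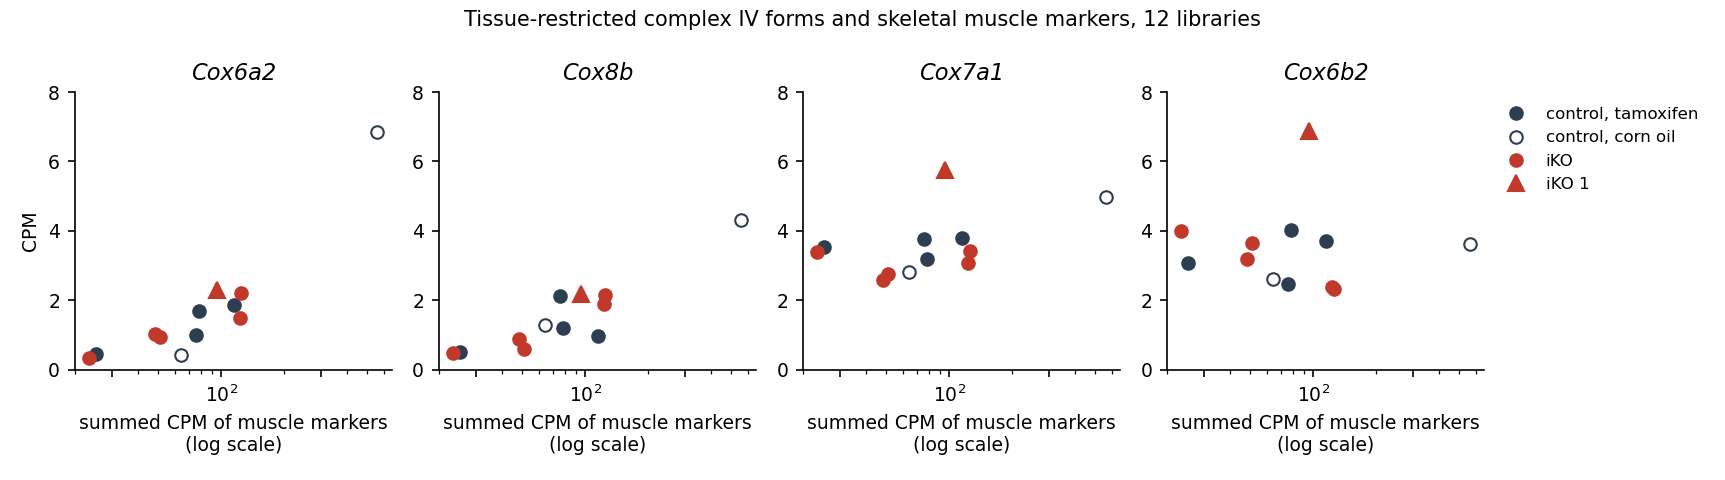
CPM of 4 tissue-restricted complex IV genes in the 12 libraries against the summed CPM of 12 skeletal muscle markers on a log scale. Control 6, at 560 CPM of markers, has the highest Cox6a2 (6.84 CPM) and Cox8b (4.31 CPM), while iKO 1 has the highest Cox7a1 (5.76 CPM) and Cox6b2 (6.88 CPM).

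The broad partners of complex IV gave small values, none called. Cox6a1 had 186, 205 and 218 CPM in controls, against 205, 227 and 276 CPM in iKO libraries (log2 fold change 0.18 ± 0.07, adjusted p = 0.404). Cox8a had 164, 186 and 192 CPM in controls, against 185, 205 and 234 CPM in iKO libraries (0.17 ± 0.06, adjusted p = 0.379). In Cox6a1 iKO 1, 2, 3 and 6 lay above all controls, and in Cox8a all iKO libraries but iKO 5 did. Without iKO 1 both had a log2 fold change of 0.14. Cox4i1, which binds the core of the complex, had 291 ± 8.89 and 320.1 ± 48.4 CPM (0.12 ± 0.08), of which iKO 1 held 419 CPM and the other 5 iKO libraries at most 308. Without iKO 1, Cox6b1, Cox7a2, Cox7a2l and Ndufa4 had log2 fold changes of -0.07, -0.02, -0.08 and -0.03, and with it 0.00, 0.06, 0.02 and 0.07. Cox7b changed from 0.13 ± 0.15 to 0.01 ± 0.09.

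Subunits encoded in mitochondrial DNA, which are built into complexes I, III, IV and V beside the members, were measured only in part. Of 13 such mRNAs, 7 passed the filter on low counts. Another 5 (mt-Nd4l, mt-Co2, mt-Co3, mt-Atp6 and mt-Atp8) were listed at 0 in every library, and mt-Nd3 stood below 1 CPM. Of the 50-base stretches of mt-Co2, mt-Co3, mt-Atp6, mt-Nd4l and mt-Nd3, 98.0% to 100% also occur in transcripts of other genes, as do 62.2% for mt-Nd4 and 51.1% for mt-Co1, so these levels are uncertain. For mt-Atp8, also listed at 0, the share is 0%. All 7 measured mRNAs had negative log2 fold changes, with a median of -0.22, and 0 of them were called, the smallest adjusted p being 0.515. Without iKO 1 the median was -0.29, and 2 of the 7 were called lower, where 2.21% of all genes were called in either direction: mt-Nd2, a complex I subunit, fell by 0.36 ± 0.08 on the log2 scale (adjusted p = 0.0376), and mt-Cytb, the cytochrome b of complex III, fell by 0.29 ± 0.07 (adjusted p = 0.0439). The mt-Nd2 controls had 2382, 2773 and 3036 CPM and the iKO libraries 1818, 2131 and 3254 CPM, with the highest value in iKO 1 and that of iKO 4, 2515 CPM, also inside the range of the controls.

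These 2 calls depended on the choice of libraries and settings. When 1 further library was left out, the number called ran from 0, for each of controls 1 to 4 and iKO 2, 3, 5 and 6, to 6 without iKO 4, while the median stayed between -0.37 and -0.25. In the 11 libraries, DESeq2 called 5 of the 7, limma-voom 2, the test with no filter 7, that with sample number range as a term 6 and that without a sex term 3. In all these fits the 7 values were negative. Shares of all genes called in these settings are not given here. The counts therefore do not show how far the 7 depart from other genes. Signs of cell type markers in the same 11 libraries, where 2.21% of all genes were called, are given as a description. Genes of a list share these libraries and are not independent. Log2 fold changes were negative for 11 of 12 endothelium and mural markers (1 called) and 10 of 10 of macrophages. The same held for 7 of 8 fibroblast (1 called), 7 of 7 erythroid, 7 of 7 adipocyte and 11 of 11 skeletal muscle markers. Values were positive for 12 of 14 sensory neuron, 11 of 12 myelinating Schwann cell and 6 of 10 satellite glia markers, none called. Summed levels of controls and iKO 2 to 6 overlapped for each of these cell types except endothelium and mural cells. Endothelium and mural markers summed to 470 to 543 CPM in controls and 420 to 439 CPM in iKO 2 to 6, and their part in the mitochondrial mRNAs was not tested. Within sample numbers 14 to 17 the median of the mitochondrial mRNAs was -0.33 and 2 were called lower, where 0.497% of all genes were called. Within numbers 1 to 8 it was -0.13 with 0 called, where 0.211% of all genes were. The summed level of the 13 was 27130 to 33560 CPM in controls, 22310 to 29300 CPM in iKO 2 to 6 and 35270 CPM in iKO 1. The nuclear members of the same 11 libraries had a median of -0.01, and whether the nuclear and mitochondrial sets differed was not tested.

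Other genes of the pathway were taken from lists, and none of those below was called with all 12 libraries or without iKO 1. Among 5 electron carriers and subunits outside the name rule, 2 had positive values, and the smallest p was that of Etfa, an electron transfer flavoprotein subunit (82.8 ± 3.75 and 72.8 ± 4.302 CPM, log2 fold change -0.19 ± 0.05, adjusted p = 0.189). Positive values were found for 7 of 10 further complex I assembly factors, 4 of 6 of complex III, 14 of 21 of complex IV and 4 of 4 of complex V. In order, their smallest p-values were those of Acad9 (-0.16 ± 0.06), Uqcc3 (0.14 ± 0.08), Cox17 (-0.22 ± 0.12) and Fmc1 (0.14 ± 0.14). Acad9, needed for complex I assembly, had groups that did not overlap, 40.5 to 45.4 CPM in controls and 33.6 to 39.7 CPM in iKO libraries, with an adjusted p of 0.299.

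Of 17 genes of pyruvate dehydrogenase and the citric acid cycle, 11 had positive values (median 0.03), with Dld the smallest p (-0.12 ± 0.06, adjusted p = 0.6). Glycolytic genes had 16 of 17 positive values (median 0.06), led by Pfkl, a phosphofructokinase (0.15 ± 0.06, adjusted p = 0.37). Among 10 uncoupling proteins and carriers of ADP, ATP and phosphate, 5 were positive, and the phosphate carrier Slc25a3 had groups that did not overlap (337 ± 9.93 and 358 ± 4.83 CPM, adjusted p = 0.575). Of 17 regulators of mitochondrial biogenesis 12 had positive values. Esrra, an orphan nuclear receptor that activates many subunit genes, had 29.7, 33.1 and 38.6 CPM in controls, against 33.9, 40.1 and 46.3 CPM in iKO libraries (0.28 ± 0.09, adjusted p = 0.238). Nrf1, Gabpa and Yy1, whose motifs were searched above, had log2 fold changes of -0.01 ± 0.08, -0.11 ± 0.06 and 0.06 ± 0.06, and the coactivator Ppargc1a 0.05 ± 0.09. Without iKO 1, positive values were found for 11 of 17 genes of pyruvate dehydrogenase and the citric acid cycle, 15 of 17 of glycolysis, 4 of 10 carriers, 12 of 17 regulators, 3 of 5 further carriers and subunits, and 6 of 10, 4 of 6, 15 of 21 and 4 of 4 assembly factors of complexes I, III, IV and V.

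Between the sexes, again 0 of 93 members were called, where 0.0549% of all genes were. A single member had an unadjusted p under 0.05 (1.08%, against 4.11% of all genes): Cox5b, a zinc-binding subunit of complex IV, with a male over female log2 fold change of -0.16 ± 0.06 (adjusted p = 0.904). Of the members, 31 had positive and 62 negative values, and iKO 1, the library with the highest levels, was female. The 3 X-linked members, Ndufa1, Ndufb11 and Cox7b, had log2 fold changes of -0.06 ± 0.08, -0.08 ± 0.10 and -0.24 ± 0.15, none called.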

How the data were processed

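The authors deposited unnormalized gene counts, 1 table for each of 12 libraries. Libraries were made from poly(A) RNA with a TruSeq kit that keeps no strand, per the labels' protocols. The submitters' processing notes name featureCounts 2.0.1, STAR 2.7.8a, bcl2fastq 2.20.0.422 and the build GRCm39. Which annotation release and counting options were used is not stated there. Symbols, classes, lengths and overlaps came from GENCODE M21 (GRCm38), which named 52135 of 55416 identifiers (99.7% of counts). No gene positions are given from it.

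Counts were scaled by TMM, filtered with filterByExpr by group and tested with edgeR 4.0.16 (R 4.3.3), the quasi-likelihood test with robust estimates, a sex term and 9 residual degrees of freedom. Calls used Benjamini-Hochberg adjusted 2-sided p-values under 0.05 over all genes tested. DESeq2 1.42.0 and limma 3.58.1 served as alternatives. CPM use TMM-scaled sizes, errors are SD unless given as SE, and the pseudocount was 0.1 CPM. Shared sequence is the percent of 50-base stretches of the principal transcript found in transcripts of another gene. On simulated counts with 16256 genes tested, 63% of the genes changed 1.5-fold and 81% of those changed 2-fold were recovered. Of the calls made there, 2.04% were false. The simulation held no library shifted as iKO 1 was and no change under 1.5-fold, so it does not give the power for smaller changes in these libraries. Values of 1 member are not reported here singly, in text or in the plot of fold changes, but it is in all counts and medians. The members, lists and tests were chosen with earlier results of these data known. Named in full were, per complex, the called members or that of smallest p and that of highest level per length, the tissue-restricted forms and partners, the 3 widest ranges and members whose groups did not overlap. Per other list and for sex, the genes of smallest p were named. Other genes, among them Acad9's and Slc25a3's separation, Uqcrc1, the levels per length and the motif factors, were named after their values were seen.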

Additional observations from a re-analysis of the deposited data

Results flagged for a closer look

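Among 186 groups of 6 libraries (93 members in controls and in iKO libraries), 35 held a library that lay apart from the rest by Dixon's 95% criterion. Chance gives about 1 in 20 groups, but the members share the same 12 libraries, so the groups are not independent. The count is a description, given without the share over all genes. In 29 of these the library was iKO 1, and the other 6 were spread over controls 1, 2, 3, 5 and 6. Of the 26 members chosen for full description, iKO 1 stood apart in 12. It was high in Cox4i1 (419 CPM), Cox6b1 (333), Uqcrh (285), Cox7b (280.0), Uqcrq (139), Ndufa2 (137), Cox7a2l (108), Ndufb7 (92.5), Cox5b (69.7), Cox6b2 (6.88) and Cox7a1 (5.76), and low in Uqcrc2 (161 CPM). In Cox7a2l, control 2 was also apart from the other controls, at 70.2 CPM, and in Cox6a2 control 6 was apart at 6.84 CPM.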

How the results depend on the processing

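Members called stayed at 0 between iKO and control under the other alternatives, leaving out each library in turn included, except for 1 without the corn-oil controls. The median over members ran from -0.01 to 0.07 over all alternatives, moving by less than 1 SD of the control libraries. Genes called over the whole table went from 155 to 294 with DESeq2, 253 without a filter on low counts, 35 within sample numbers 1 to 8, 82 within numbers 14 to 17 and 235 without the corn-oil controls. Leaving out 1 library gave 92 to 364 (92 without control 1, 102 without control 2, 93 without iKO 5, 97 without iKO 6 and 364 without iKO 1). In the fit with a replicate block and sex, 79 genes and 0 members were called, Uqcrh turned to 0.048 and the median was 0.07. Deviations of same-numbered libraries correlated from -0.153 to 0.217. Their own number was the best match for 3 of 6 controls and 3 of 6 iKO libraries. These values do not settle whether same-numbered libraries belong together. The main test took the numbers as names, and the fit with a replicate block is the one that pairs them.

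Without iKO 1, members called were 1 with DESeq2, 1 with RLE size factors, 1 without a sex term, 3 without a filter and, in alternatives added after the data were seen, 1 with sample number range as a term, 5 without the corn-oil controls and 0 to 2 when a further library was left out (1 without control 2, 2 without control 5, 2 without iKO 4). Of all genes, 2.21% were called in the main test without iKO 1 and 9.62% without the corn-oil controls as well. Shares for the other settings are not given here, so these counts are not read as results about the members. Male against female gave 0 in all alternatives run.

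Small values changed sign. Cox6b1 was -0.0013 on library totals and -0.0046 with limma-voom, and Sdhaf4 -0.0048 with limma-voom and -0.053 without the corn-oil controls. In the latter, Cox6a2 was 0.17 and Cox8b 0.21. Within numbers 1 to 8, Cox7a1 was 0.046 and Cox7a2 -0.0066, and within 14 to 17, Cox6b2 was -0.41, Cox7a2l -0.098 and Uqcrh 0.018. Leave-one-out ranges that crossed 0 were Cox6a2 -0.72 to 0.35, Cox6b1 -0.065 to 0.036, Cox6b2 -0.079 to 0.20, Cox7a1 -0.26 to 0.033, Cox7a2 -0.022 to 0.10, Cox7a2l -0.082 to 0.058, Cox8b -0.45 to 0.22, Ndufa2 -0.017 to 0.10, Ndufa4 -0.033 to 0.13, Sdhaf4 -0.073 to 0.083, Sdhb -0.0020 to 0.045 and Uqcrh -0.14 to 0.022. None of these passed the threshold. For Cox6a2, Cox8b and Cox7a1 the positive values came without control 6 (and for Cox8b also without iKO 4), and for Cox7a2, Ndufa2, Ndufa4 and Sdhb the negative ones without iKO 1. Causes were not tested. Depth limits Cox6a2, Cox8b, Atp5g2 and Sdhaf1, and shared sequence limits 6 members and may limit others that share less.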
